A study of Homo sapiens with 3 samples.

Results

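Kruppel-like factors (KLFs) and EGR1 are zinc finger transcription factors, and 9 of them were followed here in HCT116 cells depleted of UHRF1: EGR1, KLF2, KLF3, KLF4, KLF5, KLF6, KLF9, KLF10 and KLF11. Every probe set that the array annotation assigns to exactly 1 of these genes was kept, with no expression filter, which gave 26 of the 54613 probe sets on the array. The group was picked because KLF4 was lower with both UHRF1 hairpins and because KLF2 and EGR1 moved in opposite directions with them. The members were thus selected on their differences from the control array with each hairpin, so all member values below are a description and carry no test.

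HCT116 is a human colorectal carcinoma cell line. Lentivirus delivered UHRF1 shRNA-2 (here hairpin 2, 1 array), UHRF1 shRNA-5 (hairpin 5, 1 array) or a scrambled shRNA (the control, 1 array). All 3 cultures were transduced and kept in puromycin for 6 days before total RNA was taken, so no array shows cells without virus or drug. UHRF1 reads both the histone H3 tail and hemimethylated DNA, and the study asked which transcripts depend on it.

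KLFs share zinc fingers at their C-terminal end that bind GC-rich and CACCC sequences, and differ in the activating or repressing parts in front of them. In the intestine KLF4 is best known from differentiated, non-dividing epithelium, whereas KLF5 is known from the dividing cells of the crypt. EGR1 is an immediate early gene: growth factor signalling through ERK phosphorylates factors bound beside SRF at CArG boxes in its promoter, and its transcript appears and decays quickly. KLF2 and KLF4 are induced through the ERK5 kinase and MEF2 factors in endothelium, and KLF10 and KLF11 were first described as genes induced by TGF-beta.

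The promoters of the 3 genes that led to the choice of the group are shown first. On their brightest probe sets EGR1 and KLF2 had nearly the same pattern on the arrays and KLF4 another. Each line gives the 250 bases before the transcript start, 5′ to 3′, from RefSeq on GRCh38.p14. Capitals mark matches to the CArG box in EGR1 (chr5:138465229-138465478, plus strand), to the MEF2 box in KLF2 (chr19:16324576-16324825, plus strand) and to GGGCGG, the GC box bound by SP and KLF factors, on either strand in KLF4 (chr9:107489770-107490019, minus strand).
EGR1: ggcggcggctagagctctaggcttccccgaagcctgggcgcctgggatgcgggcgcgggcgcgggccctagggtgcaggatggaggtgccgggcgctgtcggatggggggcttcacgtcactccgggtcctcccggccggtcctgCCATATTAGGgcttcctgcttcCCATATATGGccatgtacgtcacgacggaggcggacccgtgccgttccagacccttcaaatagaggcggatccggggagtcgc
KLF2: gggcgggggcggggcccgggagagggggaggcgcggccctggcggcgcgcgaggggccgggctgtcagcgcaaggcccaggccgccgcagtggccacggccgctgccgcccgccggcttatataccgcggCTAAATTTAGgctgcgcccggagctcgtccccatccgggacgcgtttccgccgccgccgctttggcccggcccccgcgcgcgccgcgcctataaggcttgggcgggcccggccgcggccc
KLF4: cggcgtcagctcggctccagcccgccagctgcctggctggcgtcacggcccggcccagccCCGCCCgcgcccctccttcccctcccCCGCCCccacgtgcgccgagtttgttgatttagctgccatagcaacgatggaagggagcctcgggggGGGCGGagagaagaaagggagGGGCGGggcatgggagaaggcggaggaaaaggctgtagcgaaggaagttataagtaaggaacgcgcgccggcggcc

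EGR1 had CArG boxes starting 105 and 83 bases before its start, and among 35116 RefSeq windows of this length 1.16% held one. KLF2 had 1 MEF2 box, starting 120 bases before its start, a motif found in 2.80% of windows. It also had 4 GC boxes, which are not in capitals above. KLF4 had 4 GC boxes, as many as KLF2, and neither of the other motifs in this window, and 42.6% of all windows held a GC box. RefSeq windows were found for 7 of the 9 members, with KLF5 and KLF11 having alternative starts, and 6 of these 9 windows held a GC box. CACCC, read on both strands, was in 4 of the 9 windows and in 54.7% of all windows. The EGR1 binding motif GCGTGGGCG was in 0 of the 9, and in 0.72% of all windows. No match to one of the 5 motifs overlapped a match to another. A match is only a string of letters and shows no binding.

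**Figure D1:**
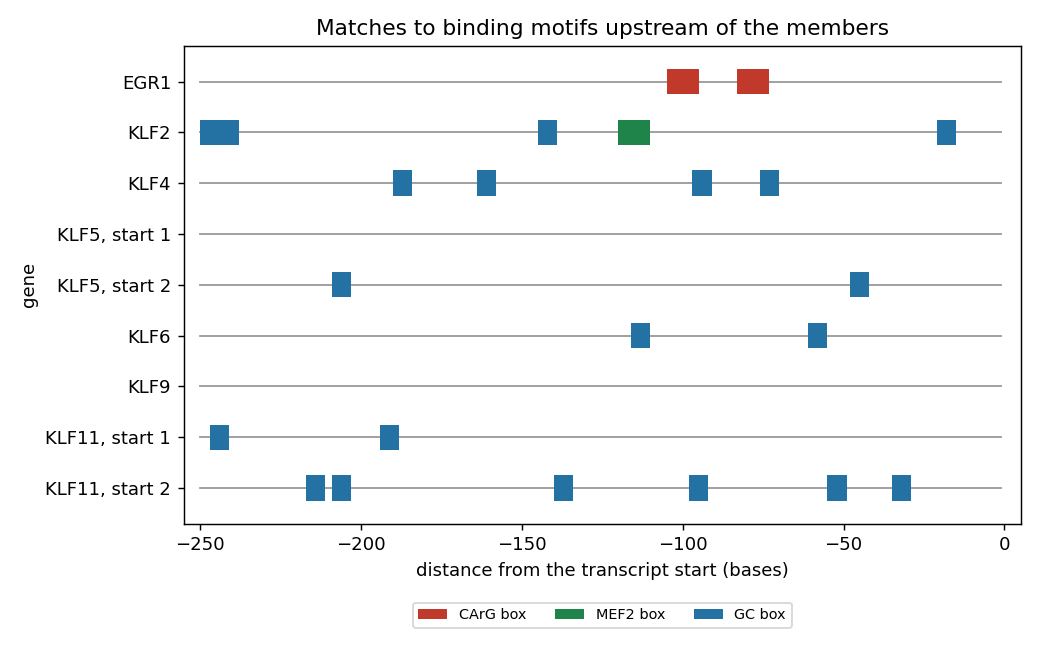
Matches to 3 motifs in the 250 bases before each RefSeq transcript start of 7 members, by distance from the start in bases (horizontal axis); each line is 1 window and each block 1 match on either strand. EGR1 alone among these windows has CArG boxes, KLF2 alone has a MEF2 box, and GC boxes lie in 6 of the 9 windows.

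The arrays report log2 levels, summarised by the authors with RMA, so a difference of 1 is 2-fold. UHRF1 itself read 6.20 with hairpin 2 and 6.67 with hairpin 5, against 8.54 on the control array, or 5.09-fold and 3.68-fold less. For counts over genes, each gene was represented by its brightest probe set, and 11865 of 19775 genes had a mean level at or above log2 3.28. All 9 members passed this filter, KLF9 just above it (mean 3.30). In limma, 0 of these 11865 genes (0%) passed an adjusted p of 0.05 for UHRF1 hairpins against control, with 277 at an unadjusted p under 0.05. With an intensity trend in eBayes limma passed 1 gene, HSPE1, which is no member (adjusted p = 0.0475). Genes past 2-fold from the control made up 1.15% (higher) and 0.573% (lower) with hairpin 2, and 0.253% (higher) and 1.94% (lower) with hairpin 5. IFIT1, an interferon-stimulated gene, read 10.01 with hairpin 2 and 5.41 with hairpin 5, against 3.22 on the control array, so it was highest with hairpin 2 and also 4.55-fold above the control with hairpin 5. Its control value lay below the filter value and may be background, so that fold is uncertain. Of the colorectal epithelial markers 8 of 9 passed the filter, VIL1 being the exception, while 0 of 4 leukocyte markers passed. KRT20, a keratin of differentiated colon epithelium, read 5.62 with hairpin 2 and 2.64 with hairpin 5, against 2.77 on the control array, and so passed through hairpin 2. CDX2, an intestinal transcription factor, read 4.81 with hairpin 2 and 4.89 with hairpin 5, against 4.46 on the control array. With its probe sets averaged, CDX2 was only 0.11 and 0.08 above the control. EPCAM (−0.10 and −0.30) and CDX1 (−0.13 and −0.07) were lower with both hairpins. Of the 8 epithelial markers that passed, 3 were higher with both hairpins, 2 lower and 3 mixed, so no common direction is read. Of the fibroblast and endothelial markers 2 of 7 passed, COL1A1 and PECAM1. The part that IFIT1 or KRT20 had in the member differences was not tested.

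EGR1 was higher than the control with hairpin 2 and lower with hairpin 5. Its brightest probe set, 201694_s_at, read 8.87 with hairpin 2 and 6.80 with hairpin 5, against 7.98 on the control array. The control value therefore lay between the hairpins, with differences from it of 0.89 for hairpin 2 and −1.18 for hairpin 5. The second probe set, 227404_s_at, read 8.57 with hairpin 2 and 6.42 with hairpin 5, against 7.38 on the control array. The dimmest, 201693_s_at, read 6.05 with hairpin 2 and 4.25 with hairpin 5, against 4.76 on the control array. All 3 probe sets thus put the arrays in the same order, with hairpin 2 highest and hairpin 5 lowest, and hairpin 2 minus hairpin 5 ran from 1.80 to 2.15. On the brightest probe set the hairpins differed 4.19-fold, and the mean difference from the control was −0.15 ± 1.46 (SD, n = 2 hairpins). A mean over the hairpins therefore hides both differences. On the scale of hairpin 2 minus hairpin 5, EGR1 was number 37 from the top among the 11865 genes.

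KLF2, known for keeping endothelium and T cells quiescent, followed the order of EGR1. Probe set 219371_s_at read 8.48 with hairpin 2 and 6.61 with hairpin 5, against 7.63 on the control array. The differences from the control were 0.84 and −1.03, with a mean of −0.09 ± 1.32 (SD, n = 2 hairpins). The other probe set, 226646_at, was near the filter value on every array, at 3.51 with hairpin 2, 3.26 with hairpin 5 and 3.29 on the control array. It kept the order of the arrays, with differences of only 0.22 and −0.03. In the plane of the 2 hairpin differences by brightest probe set, EGR1 and KLF2 were the closest pair of members, 0.16 apart. Averaged over probe sets, EGR1 stood at 1.12 and −0.88 and KLF2 at 0.53 and −0.53. They were then further apart, and KLF2 was short of 1.5-fold with either hairpin. By brightest probe set, 0.295% of genes tested were past 1.5-fold both ways, above the control with hairpin 2 and below with hairpin 5. EGR1 and KLF2, 2 of the 9 members, were among them. They were picked for this pattern, so nothing is read from that count or from their nearness. No gene tested had the opposite pattern at that fold (0%).

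KLF4 was lower than the control with both hairpins. Probe set 221841_s_at read 6.63 with hairpin 2 and 5.68 with hairpin 5, against 7.41 on the control array. The difference was −0.79 with hairpin 2 (1.72-fold lower) and −1.73 with hairpin 5 (3.31-fold lower), and its mean was −1.26 ± 0.67 (SD, n = 2 hairpins). Hairpin 5 had the lower KLF4 and, on these arrays, the weaker UHRF1 depletion. With 1 array per hairpin, a relation between the 2 genes was not tested. The dim probe set 220266_s_at read 3.41 with hairpin 2 and 3.25 with hairpin 5, against 3.54 on the control array, in the same order but with differences of only −0.14 and −0.29. KLF4 was number 24 from the lowest of 11865 genes with hairpin 5 and number 156 with hairpin 2. By brightest probe set it was the 1 member at least 1.5-fold lower with both hairpins, as were 1.59% of genes, and it had been chosen for that. Averaged over its 2 probe sets, KLF4 was at −0.46 with hairpin 2, short of 1.5-fold, and at −1.01 with hairpin 5.

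**Figure D2:**
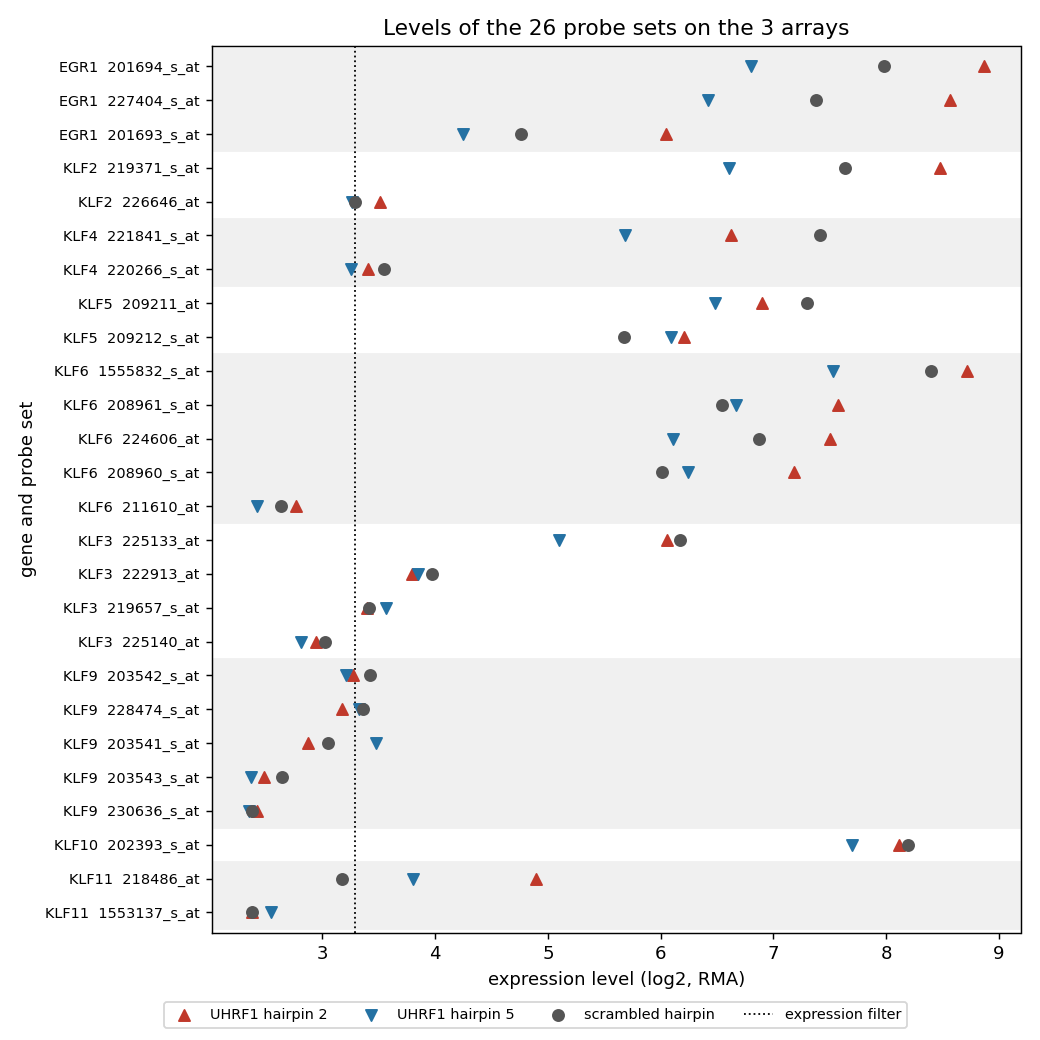
Log2 level (horizontal axis) of each of the 26 probe sets on the hairpin 2, hairpin 5 and control arrays, 1 point per array; the dotted line is the expression filter of log2 3.28. For all 3 EGR1 probe sets the control lies between the hairpins, and both KLF4 probe sets are highest on the control array.

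KLF6, a widely expressed factor induced by injury and growth signals, was higher than the control with hairpin 2 on the 4 of its 5 probe sets that lay above the filter value. The brightest, 1555832_s_at, read 8.72 with hairpin 2 and 7.53 with hairpin 5, against 8.40 on the control array. Another, 224606_at, read 7.50 with hairpin 2 and 6.11 with hairpin 5, against 6.87 on the control array. On these probe sets hairpin 5 differed from the control by −0.87 and −0.77. Probe set 208961_s_at read 7.57 with hairpin 2 and 6.67 with hairpin 5, against 6.54 on the control array. Probe set 208960_s_at read 7.18 with hairpin 2 and 6.25 with hairpin 5, against 6.01 on the control array. On this second pair hairpin 5 lay 0.12 and 0.23 above the control, so the direction with hairpin 5 depended on the probe set. The dimmest, 211610_at, was under the filter value on every array, at 2.76 with hairpin 2, 2.42 with hairpin 5 and 2.64 on the control array, and its order is not read. The mean difference on the brightest was −0.27 ± 0.84 (SD, n = 2 hairpins), and over all 5 probe sets it averaged 0.18.

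KLF11, a repressor that recruits SIN3A, was the 1 member above the control with both hairpins on its brighter probe set. Probe set 218486_at read 4.89 with hairpin 2 and 3.80 with hairpin 5, against 3.18 on the control array, a level below the filter value. The differences were 1.72 (3.29-fold) and 0.63 (1.54-fold), with a mean of 1.17 ± 0.77 (SD, n = 2 hairpins). Since the control value may be background, both folds are uncertain, and the gene passed the filter through the hairpin arrays. The other probe set, 1553137_s_at, stayed below the filter value, at 2.37 with hairpin 2, 2.54 with hairpin 5 and 2.38 on the control array. KLF11 was number 42 from the top of 11865 genes with hairpin 2. Among all genes tested, 0.759% were at least 1.5-fold higher with both hairpins. KLF10, the related TGF-beta inducible repressor, has 1 probe set, which read 8.11 with hairpin 2 and 7.70 with hairpin 5, against 8.19 on the control array. Its differences were thus −0.08 with hairpin 2 and −0.50 with hairpin 5.

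KLF3, a repressor that works through CTBP, was lower with hairpin 5 on its brightest probe set. That probe set, 225133_at, read 6.06 with hairpin 2 and 5.10 with hairpin 5, against 6.17 on the control array. Hairpin 2 was close to the control there (−0.11) and hairpin 5 was not (−1.08), for a mean of −0.59 ± 0.68 (SD, n = 2 hairpins). The other 3 probe sets of KLF3, with means between 2.92 and 3.87, differed from the control by −0.22 to 0.15 with hairpin 5. The lower value with hairpin 5 therefore rests on 1 probe set.

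The probe sets of KLF5 gave opposite directions. Probe set 209211_at read 6.90 with hairpin 2 and 6.48 with hairpin 5, against 7.30 on the control array. Probe set 209212_s_at read 6.21 with hairpin 2 and 6.09 with hairpin 5, against 5.67 on the control array. The first differed from the control by −0.40 and −0.82 and the second by 0.54 and 0.42, so no direction can be given for KLF5. KLF9, a repressor induced by steroid and thyroid hormones, was near the filter value: its brightest probe set, 203542_s_at, read 3.27 with hairpin 2 and 3.21 with hairpin 5, against 3.42 on the control array. Of the 6 member probe sets with means below the filter value, 3 belong to KLF9, and the largest difference from the control on any of the 6, in either direction, was 0.42.

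**Figure D3:**
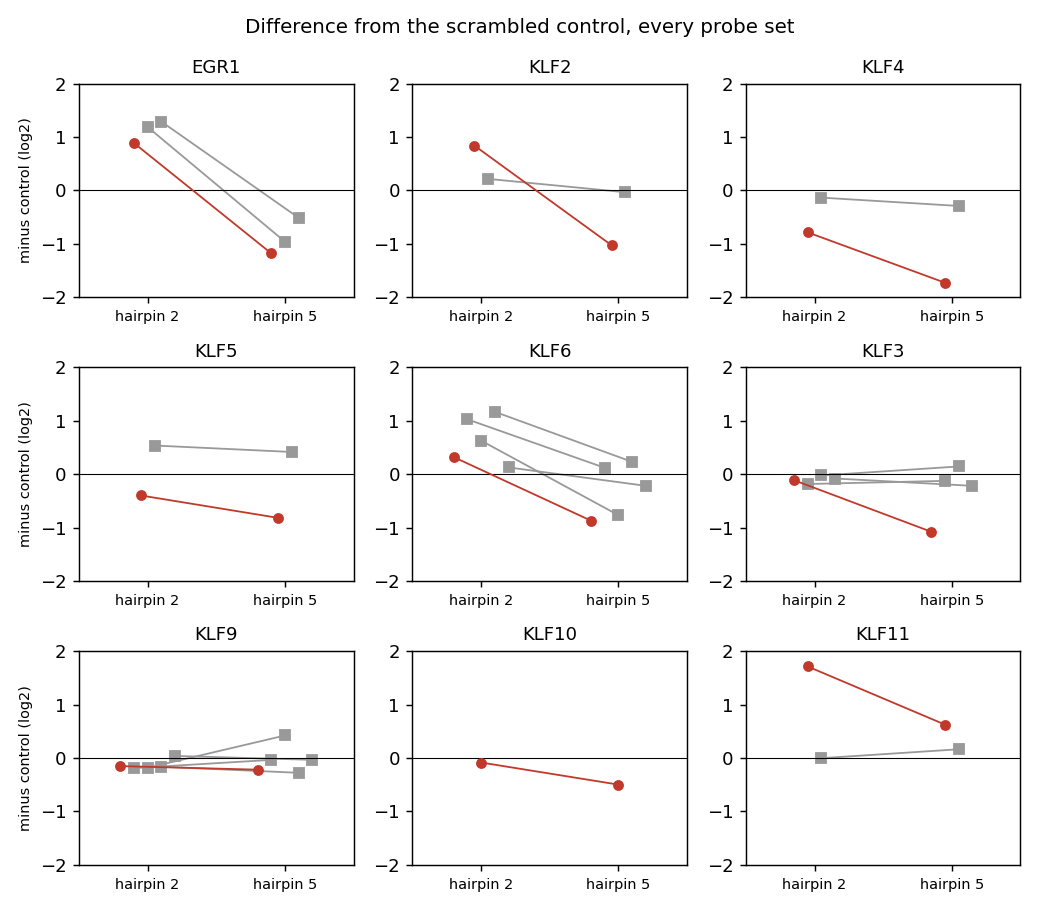
Difference from the control array (log2, vertical axis) with hairpin 2 and hairpin 5, 1 panel per gene and 1 line per probe set, red circles for the brightest and grey squares for the others. The lines of EGR1 and KLF2 cross 0, those of KLF4 stay below it, and the 2 lines of KLF5 lie on opposite sides of it.

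Counted by the brightest probe set, 1 of the 9 members, KLF11, was past 2-fold above the control with hairpin 2, where the share over all genes was 1.15%. With hairpin 5, 4 of 9 were at least 2-fold lower (EGR1, KLF2, KLF3 and KLF4), where the share over all genes was 1.94%. At 1.5-fold, hairpin 2 had 3 members higher and 1 lower, beside 5.93% and 3.14% of all genes, and hairpin 5 had 1 higher and 6 lower, beside 2.84% and 9.79%. Of the 26 probe sets, 5 were at least 2-fold above the control with hairpin 2 (0.558% of all probe sets on the array) and 4 at least 2-fold below it with hairpin 5 (0.683%). Between the hairpins, 7 of the 26 were at least 2-fold higher with hairpin 2 (1.14% of all probe sets). The member median was −0.08 with hairpin 2 and −0.87 with hairpin 5, beside 0.03 and −0.06 over all genes tested, and 0.07 and −0.32 with probe sets averaged. KLF6, whose direction with hairpin 5 depends on the probe set, is the median member with hairpin 5. Set against hairpin 5, hairpin 2 had 4 of 9 members at least 2-fold higher (EGR1, KLF2, KLF6 and KLF11), beside 2.97% of all genes, and 0 of 9 were 2-fold lower, beside 0.202%. The choice of members used these same arrays, so these shares carry no weight as evidence. With the mean over each gene's probe sets, the members at least 2-fold lower with hairpin 5 were KLF4 alone, at −1.01. On that scale 102 of 11865 genes were as low. No member was then 1.5-fold lower with hairpin 2, KLF4 being at −0.46. EGR1 (1.12) then took the place of KLF11 (0.86) as the 1 member at least 2-fold higher with hairpin 2, beside 85 of 11865 genes. Averaging left 2 members, EGR1 and KLF4, at least 1.5-fold lower with hairpin 5, where the brightest probe sets gave 6, KLF5 and KLF6 among them. The share of all genes past 1.5-fold was not taken with probe sets averaged, so nothing is read from this fall. Averaging also left 2 members, EGR1 (2.01) and KLF2 (1.06), at least 2-fold higher with hairpin 2 than with hairpin 5, beside 165 of 11865 genes. KLF6 was then at 0.96 and KLF11 at 0.46.

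**Figure D4:**
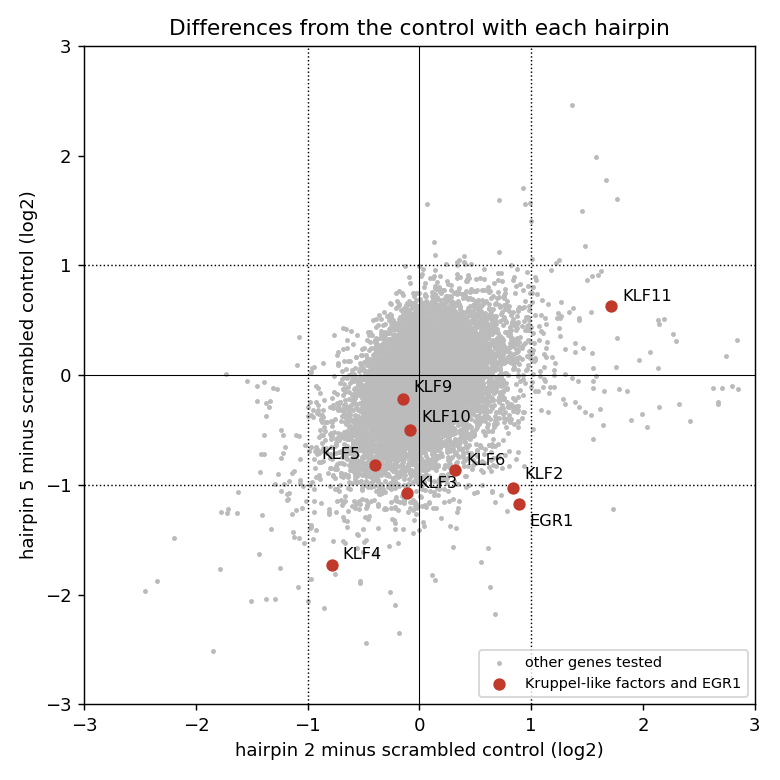
Difference from the control with hairpin 2 (horizontal axis, log2) against hairpin 5 (vertical axis, log2) for genes that passed the expression filter, by brightest probe set; members are red and dotted lines mark 2-fold. EGR1 and KLF2 lie together at lower right, KLF4 at lower left and KLF11 at upper right, and 13 genes fall outside the axes.

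Genes whose pair of hairpin differences lay closest to that of EGR1, KLF2 or KLF4 were listed by distance over the 2 hairpins, with the members left out. Nearest to EGR1 was ISG20, an interferon-inducible exonuclease, with 6.24 for hairpin 2 and 4.21 for hairpin 5, against 5.45 on the control array (distance 0.12). LNCAROD, LINC00992, ZFYVE21 and GSEC followed at distances of 0.18 to 0.27. Nearest to KLF2 were LNCAROD (0.13), GSEC (0.20), ZFYVE21 (0.20), KHDC1L (0.20) and CYP2R1, a vitamin D 25-hydroxylase (0.21). LNCAROD read 4.69 with hairpin 2 and 2.86 with hairpin 5, against 3.96 on the control array, and so was under the filter value with hairpin 5, as was LINC00992 at 3.22. With probe sets averaged, GSEC stood at 0.43 and −0.34 and CYP2R1 at 0.20 and −0.29. On that scale KLF2 itself stood at 0.53 and −0.53 and EGR1 at 1.12 and −0.88. Distances were taken on the brightest probe sets only, so nearness between averaged values was not tested. Nearest to KLF4 was FAM241A, with 5.09 for hairpin 2 and 4.03 for hairpin 5, against 5.84 on the control array (distance 0.09). The cystine transporter SLC7A11 (0.22), the mitochondrial enzyme PCK2 (0.23), the urokinase receptor PLAUR (0.23) and RARA-AS1 (0.24) came next. With 2 differences per gene and a shared control array, nearness describes these arrays only.

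Genes that act with the factors, feed into them or lie downstream of them were taken from 9 lists. None of their tested members passed limma, but neither did any of the 11865 genes, so this says nothing about the lists. With hairpin 5, 2 of the 74 tested were at least 2-fold lower, PDGFA and VEGFA, a share of 2.70% beside 1.94% of all genes. With hairpin 5, 0 were 2-fold higher, beside 0.253% of all genes. With hairpin 2, 0 were 2-fold higher and 0 lower, beside 1.15% and 0.573%. Averaged over probe sets, neither PDGFA nor VEGFA was 2-fold lower with hairpin 5, and RPS6KA3 was (−1.03). Among the other KLF and SP factors, 17 of 19 were analysed and 11 passed the filter. Their median was −0.07 with hairpin 2 and −0.29 with hairpin 5. In this family 2 were higher and 4 lower with both hairpins, and 0 were 2-fold away with either. The share of all genes on the same side with both hairpins was not taken, and both differences use the same control array. Nothing is therefore read from same-side counts in this or the other lists. KLF15 differed by −0.73 and −0.29, SP4 by −0.35 and −0.46, and SP2 by −0.08 and −0.70. Averaged, SP4 was at −0.30 and −0.16 and SP2 at −0.11 and −0.30. KLF15 stood at −0.37 with hairpin 2 and 0.01 with hairpin 5 when its probe sets were averaged.

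Of the other EGR factors, WT1 and the NAB corepressors, none of the 3 genes that passed the filter was 1.5-fold from the control with either hairpin. NAB2, a corepressor that EGR1 itself induces, read 6.68 with hairpin 2 and 6.16 with hairpin 5, against 6.23 on the control array. Averaged over its 2 probe sets, NAB2 was above the control with both hairpins, by 0.45 and 0.16. EGR4 differed by 0.09 and 0.23, and 5 genes of this list were analysed. In the ERK and SRF pathway that drives EGR1, 11 of 15 genes were analysed and all 11 passed the filter, with medians of 0.10 and −0.01, 3 higher and 2 lower with both hairpins. The kinase gene MAP2K2 differed by 0.50 and 0.20 and RPS6KA1 by 0.30 and 0.42, while RPS6KA3, a kinase downstream of ERK, read 5.78 with hairpin 2 and 5.43 with hairpin 5, against 6.41 on the control array. SRF read close to the same on every array, at 5.93 with hairpin 2, 5.99 with hairpin 5 and 6.00 on the control array. ELK4, an SRF partner, had the order of EGR1, at 7.18 with hairpin 2 and 5.86 with hairpin 5, against 6.72 on the control array. Over its 7 probe sets ELK4 averaged 0.00 and −0.22, so this order rests on the brightest one. NAB2, SRF and ELK4 were picked after their values were seen.

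In the ERK5 and MEF2 pathway, which induces KLF2 and KLF4, all 7 genes passed the filter, with medians of 0.22 and −0.21. MEF2D read 5.83 with hairpin 2 and 5.69 with hairpin 5, against 6.43 on the control array, while MEF2C was 0.51 and 0.27 above the control and the kinase gene MAP2K5 at −0.21 and −0.24. As means over their probe sets, MEF2D was at −0.29 and −0.12, MEF2C at 0.29 and 0.31 and MAP2K5 at −0.09 and −0.14. Of the TGF-beta genes upstream of KLF10 and KLF11, 9 of 10 were analysed and 7 passed, with medians of 0.21 and −0.11. TGFBR2 was 0.27 and 0.33 above the control, TGFB1 0.48 and 0.05 above it, and SMAD4 at −0.45 and −0.60. Averaged over probe sets, TGFB1 was at 0.18 and 0.26, TGFBR2 at 0.14 and 0.29 and SMAD4 at −0.07 and −0.25. Corepressors, coactivators and ubiquitin ligases of KLFs all passed the filter (11 of 11). They had medians of 0.11 and 0.02, and 0 were 1.5-fold away with either hairpin. The histone deacetylase HDAC1 was 0.11 and 0.15 above the control, FBXW7, a ubiquitin ligase subunit that targets KLF2 and KLF5, 0.30 and 0.20 above it, and CREBBP at −0.38 and −0.27. Averaging put CREBBP at −0.02 and 0.07 and FBXW7 at 0.22 and 0.08, so the lower CREBBP rests on its brightest probe set.

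Reported targets of KLF4 and KLF5 had medians of 0.02 and 0.03 over the 12 of 14 analysed genes that passed the filter. In this list 4 were higher and 3 lower with both hairpins. Cyclin gene CCNE1, which KLF4 is reported to repress, read 7.18 with hairpin 2 and 7.13 with hairpin 5, against 6.59 on the control array. CDH1, the epithelial cadherin that KLF4 is reported to activate, read 7.15 with hairpin 2 and 6.33 with hairpin 5, against 6.16 on the control array. With probe sets averaged CCNE1 was 0.31 and 0.33 above the control and CDH1 0.47 and 0.14 above it. PDGFA, a growth factor gene that is on this list and on that of EGR1, read 4.43 with hairpin 2 and 3.79 with hairpin 5, against 5.00 on the control array. Its difference of −1.21 with hairpin 5 became −0.70 with its probe sets averaged.

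Reported EGR1 targets had medians of −0.10 and −0.05 over the 14 of 15 analysed genes that passed, 3 higher and 6 lower with both hairpins. Fibronectin, FN1, was 0.70 and 0.30 above the control, and 0.39 and 0.27 with probe sets averaged. VEGFA read 5.81 with hairpin 2 and 5.28 with hairpin 5, against 6.33 on the control array, and its −1.04 with hairpin 5 became −0.17 when its probe sets were averaged. HPSE, the heparanase, differed by 0.49 with hairpin 2 and −0.53 with hairpin 5, the order of EGR1, and was picked after its values were seen. Averaged, it stood at 0.18 and −0.25. Of the reported KLF2 targets, 2 of 6 analysed genes passed the filter: NOS3, the endothelial nitric oxide synthase, at −0.40 and −0.36, and ASS1 at 0.46 and −0.34. With its probe sets averaged NOS3 stood at −0.25 and 0.11, on the other side of the control with hairpin 5.

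**Figure D5:**
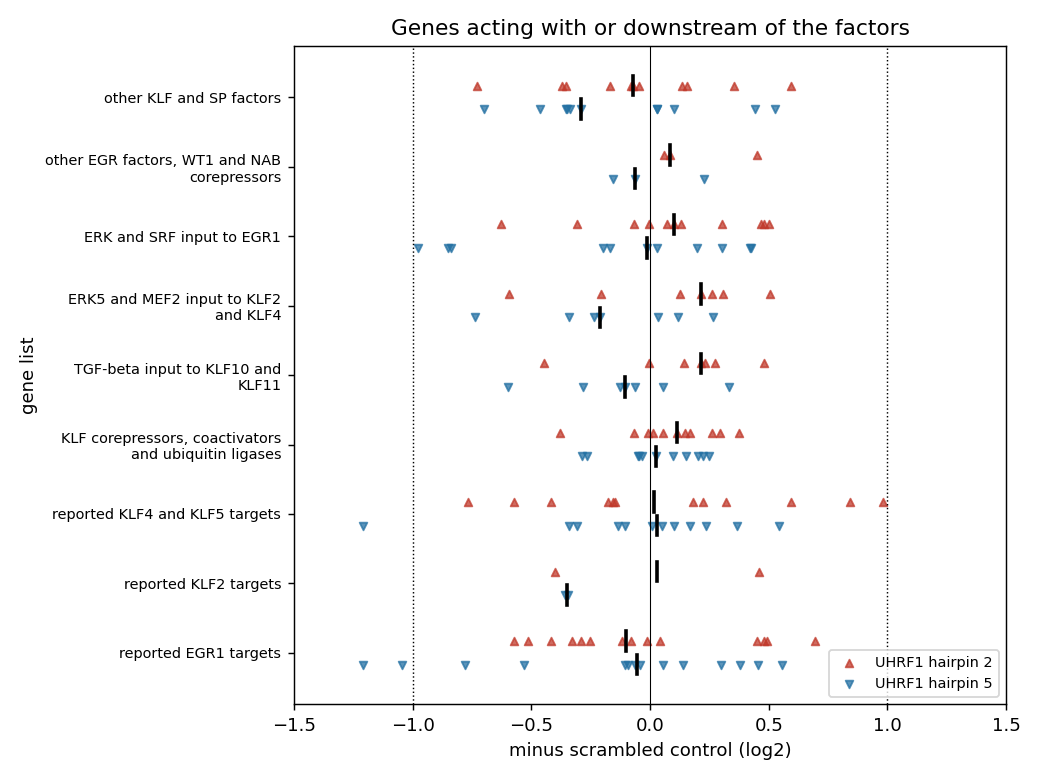
Difference from the control (log2, horizontal axis) of the tested genes of 9 lists, with hairpin 2 as upward and hairpin 5 as downward triangles, a black bar for each median and dotted lines at 2-fold. The list medians lie between −0.35 and 0.22, and only PDGFA, on 2 lists, and VEGFA pass 2-fold, with hairpin 5.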

How the data were processed

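Total RNA of 3 HCT116 cultures was hybridised to single-colour Affymetrix arrays. The deposited log2 values come, per the submitters' processing notes, from RMA in Affymetrix Expression Console, run by the authors; versions, settings and centring are not given in the sources used here, and the log base was read from the range of values. No detection calls were used. Probe sets were named from the platform annotation: 41091 had 1 gene, 1801 several and 11721 none. Gene identifiers matched RefSeq (GRCh38.p14) for 41037 of them.

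The 2 hairpin arrays share a source label and were fitted as 2 replicates against 1 control in limma 3.58.1 under R 4.3.3 (lmFit, eBayes), with Benjamini-Hochberg adjustment over 11865 genes. Each gene has 1 residual degree of freedom (5.77 after moderation), and the single control is taken to vary as the hairpin arrays do. Nothing says whether cultures were repeated, so p-values measure the spread between 2 hairpins. The fit was tested on simulated data. The small number of arrays limits precision.

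The probe set with the highest mean stood for its gene, and the filter was the 40th percentile of gene means. Members and lists were chosen with earlier results of these data known. Named list genes were up to 3 per list by the smaller of the 2 hairpin differences among genes on the same side with both hairpins, and any at least 2-fold from the control; 5 genes nearest in Euclidean distance were named for EGR1, KLF2 and KLF4. Alternatives were no filter, the 60th percentile, averaging the probe sets of each gene, median centring, cyclic loess, no probe sets ending in _x_at, 1.5-fold, eBayes with a trend or robust, and each hairpin alone.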

Additional observations from a re-analysis of the deposited data

Results flagged for a closer look

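EGR1 was above the control with hairpin 2 and below it with hairpin 5, each by at least 1.5-fold, and the hairpins differed by 2.07 (log2, hairpin 2 minus hairpin 5). KLF2 stood apart in the same way on its brightest probe set, with a difference of 1.87 between the hairpins, or 1.06 with probe sets averaged. Both were noted because 2 reagents against the same gene put them on opposite sides of the control. With 1 array per hairpin the difference was not tested, and the group had been chosen for it.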

How the results depend on the processing

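No paired analysis was possible because the control is 1 array. Leaving out a hairpin leaves limma no residual degrees of freedom, so each hairpin alone is a value: from hairpin 5 alone to hairpin 2 alone the difference ran from −1.73 to −0.79 for KLF4, −1.18 to 0.89 for EGR1, −1.03 to 0.84 for KLF2 and 0.63 to 1.72 for KLF11. With probe sets averaged per gene, genes at least 2-fold from the control numbered 85 rather than 137 higher and 28 rather than 68 lower with hairpin 2, and 16 rather than 30 higher and 102 rather than 230 lower with hairpin 5. Between hairpins it gave 165 rather than 352 genes higher with hairpin 2 and 10 rather than 24 higher with hairpin 5. List genes 2-fold lower with hairpin 5 were then 1 (RPS6KA3) rather than 2 (PDGFA and VEGFA), and members 1 rather than 4. KLF5 moved to −0.06 and KLF9 to −0.08 as means over both hairpins. At 1.5-fold the gene counts were 704 and 372 with hairpin 2, 337 and 1162 with hairpin 5, and 1430 and 315 between hairpins (higher first). List genes at 1.5-fold were 5 higher and 4 lower with hairpin 2, and 9 lower with hairpin 5. Members at 1.5-fold, a setting chosen after seeing the data, were 3 higher and 1 lower with hairpin 2, and 1 higher and 6 lower with hairpin 5. Cyclic loess gave 37 genes higher with hairpin 5 than with hairpin 2, and 1 list gene 2-fold lower with hairpin 5. It put KLF2 with hairpin 5 at −0.92, short of 2-fold. Centring gave 1 list gene 2-fold higher with hairpin 2, where the deposited scale gave 0, and the 60th percentile filter left 1 list gene 2-fold lower with hairpin 5. Centring also put KLF3 (1.03) and KLF4 (1.01) past 2-fold higher with hairpin 2 than with hairpin 5. On the deposited scale they stood at 0.97 and 0.94. Genes past that fold between hairpins then numbered 429 rather than 352. Limma passed 1 gene with an intensity trend and 0 otherwise. The causes were not tested beyond what each setting changes by construction. Levels near log2 3.28 may be background and limit KLF9, KLF11 and the dim probe sets of KLF2, KLF4 and KLF6.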
